A study of Mus musculus with 201 samples.

Results

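Single nuclei of dentate granule cells were compared by whether Fos mRNA was present in a nucleus that carried FOS protein. Members were nuclei sorted as PROX1+ and FOS+ whose total expected count was above 50000, that had more than 693 genes detected at a TPM above 1 (the table's mean minus 2 SD) and whose Arc TPM was above 1. These limits kept 31 nuclei of 201 samples in the series, out of 48 FOS+ nuclei, and they were split by a Fos TPM above 1 (present, 12 nuclei) or of 1 or less (absent, 19 nuclei). The members and both groups were thus chosen by measured values. Absent, or without Fos mRNA, means here that none was detected, and whether such nuclei held some was not tested. Fos TPM lay between 10.3 and 2819 in the 12 nuclei, and no read was assigned to Fos in any of the 19. The lowest of the 12, FOS+ nucleus 17, rested on an expected count of 1.99, and the next had a Fos TPM of 17.02. The lowest Arc TPM inside the limit were 1.85, 3.03 and 8.77, the next was 145, and Arc was at 0 in each of the 9 FOS+ nuclei outside it. Fos is left out of everything that follows.

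All of these nuclei came from 1 wild-type female C57BL/6 mouse, aged 8 weeks, that spent 15 min in an environment new to it (NE) and 1 h back in its home cage. Nuclei were freed by Dounce homogenization, stained for PROX1, the transcription factor that marks dentate granule cells in the adult brain, and for FOS, and sorted. No seizure-inducing drug or transgene was used in either group. By the paper's methods, mice were anaesthetized with ketamine and xylazine before they were killed. RNA was amplified by Smart-seq2 in 4 conditions, with a template-switching oligo (TSO) at 1 or 10 µM and ERCC spike-ins diluted 1:200 or 1:2000. The present group held 3, 4, 2 and 3 nuclei of these conditions and the absent group 7, 3, 3 and 6. For reference, the 9 FOS+ nuclei without Arc mRNA and the 41 FOS- nuclei of the same mouse that met the limits on quality are given beside the members. Each nucleus is 1 sample and the labels name no further animal, so nuclei are not replicates of a condition. No test was run, the SD given is the spread between nuclei, and the intervals cover counting error only.

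Neuronal activity reaches the nucleus through calcium and MAP kinases, which act on the factors CREB and SRF already bound at target promoters. The first genes switched on, the immediate early genes (IEGs), need no new protein. Many encode transcription factors: the FOS and JUN families that pair as AP-1, the EGR zinc fingers and the NR4A orphan nuclear receptors. Their mRNAs are short-lived, whereas FOS protein outlasts its mRNA, and later genes for secreted and synaptic proteins follow. Arc, a regulator of AMPA receptor trafficking at the synapse, belongs to the early genes and was present in every member by the rule.

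The members carried most mRNAs of granule cells. Calb1, the granule cell calcium buffer, was detected in 100% of both groups and Prox1 in 83.3% of present and 84.2% of absent nuclei. The other identity genes were less even: C1ql2, a granule cell synaptic protein, was detected in 66.7% and 31.6%, Bcl11b, a transcription factor, in 25% and 26.3% beside 68.3% of FOS- nuclei, and Stxbp6, a SNARE-binding protein, in 50% and 36.8% beside 70.7%. None of the 11 granule cell identity genes was called, and their median level difference was 0.32 against 0.03 for all genes. Total expected counts ran from 125389 to 1035170 in present nuclei (median 401917) and from 88348 to 781500 in absent nuclei (median 243453). Genes detected per nucleus numbered 6415 ± 1345 (SD, n = 12) in present and 6026 ± 1178 (SD, n = 19) in absent nuclei. Shares of the main genes are therefore also given after every member was thinned to 88335 counts, with any count taken as detection. Summed oligodendrocyte markers spanned 0 to 1058 TPM in present and 0 to 589 TPM in absent nuclei, with medians of 70.5 and 49.5 TPM. Mog was at 0 in both groups, whereas Mobp, another myelin gene, was detected in 58.3% and 26.3% of nuclei with a level difference of 1.99, and in thinned nuclei its shares differed by 39.5 points. Summed microglia markers had medians of 2.37 and 6.99 TPM, with absent nucleus 30 at 4304 TPM and C1qa at 0 in both groups. Summed astrocyte markers had medians of 12.5 and 10.3 TPM and highest values of 1687 and 584 TPM. Gja1 was at 0 in both groups, while Aldoc and Aqp4 were each detected in 2 of 12 present and 0 of 19 absent nuclei. Summed endothelial markers had medians of 0 and 1.89 TPM with Cldn5 at 0. Summed CA pyramidal markers had a median of 0 TPM in both groups, with Spink8 at 0. FOS+ nucleus 10, present, had the highest astrocyte and oligodendrocyte sums of all members (1687 and 1058 TPM) and the most genes (9016). FOS+ nucleus 30, absent, had the highest microglia sum, the fewest genes (3360) and the lowest share of TPM from the nuclear RNA Malat1 (4.14%). Without these 2 nuclei the mean number of genes detected differed between the groups by 3.79. The part of other cells in the differences below was not tested.

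Levels are means of log2(TPM + 1) over nuclei, and the share of a gene is the percentage of nuclei in which its TPM was above 1. A gene was called where its level differed by at least 2 and its share by at least 40 percentage points in the same direction. Of 11520 genes with a TPM above 1 in at least 5 members, 87 were called higher in nuclei with Fos mRNA (0.755%) and 19 were called lower (0.165%). At these shares a short list with none called, such as the identity genes above, is no result about its members. By level alone, a rule added after the values had been seen, 365 genes were higher (3.17%) and 134 were lower (1.16%). The higher and lower counts depended on the processing: they were 74 and 42 after thinning, 66 and 37 without FOS+ nuclei 10 and 30, 20 and 1 with a pseudocount of 10, and 94 and 130 among nuclei with totals of 150000 to 700000, so the excess of higher genes did not hold in every setting. Leaving out 1 nucleus gave 10 to 27 genes called lower. The call is a limit on size and not a test, and its edge was narrow: the smallest share difference among called genes was 40.4 points, and the largest among genes past the level limit but not called was 39.5 points on the higher side and 39 points on the lower side. Of the 87 genes, 42 kept a share difference of 40 points or more in thinned nuclei and 85 kept the direction. Symbols of predicted genes and pseudogenes made up 22 of the 87 and 6 of the 19, and they are counted only.

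**Figure D1:**
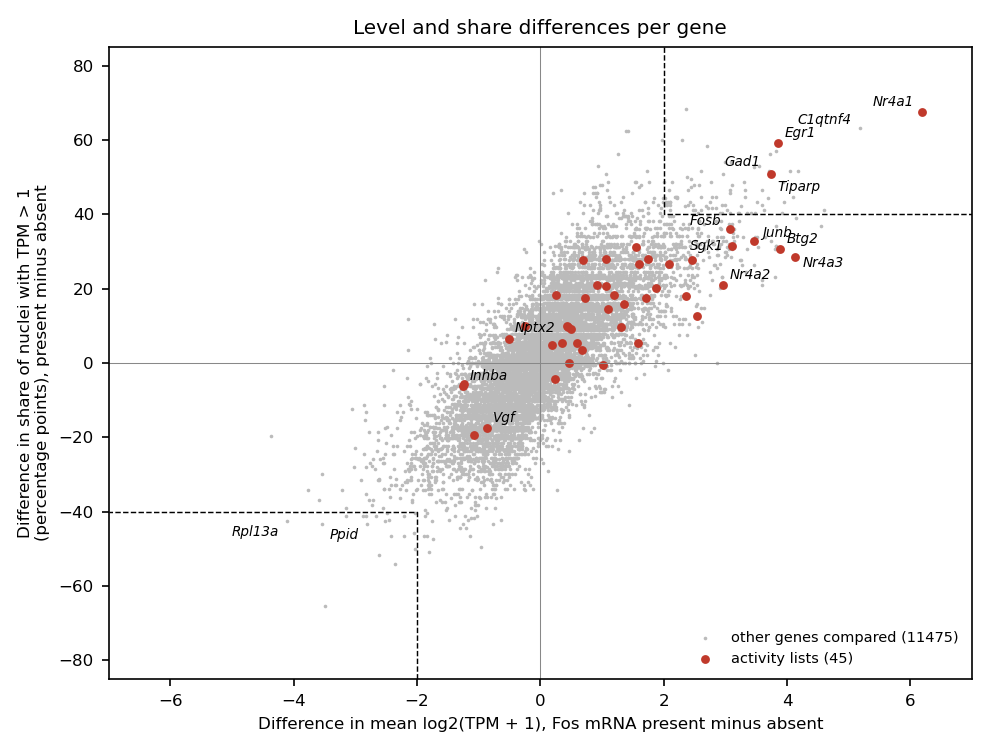
Difference in level (x axis, mean log2(TPM + 1)) against difference in share (y axis, percentage points) between nuclei with and without Fos mRNA, 1 point per gene; dashed corners mark the limits for a call and red points are the 45 activity genes compared. Nr4a1 lies at 6.19 and 67.5 points, 13 red points lie at a level difference of 2 or more and none at -2 or less.

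Genes known to be induced by activity were gathered in 7 lists of 56 genes, of which 45 were compared. Of these 45, 3 were called higher (Nr4a1, Egr1 and Tiparp) and none was called lower. By level alone 13 of the 45 were higher by at least 2 (28.9%, beside 3.17% of all genes compared) and none was lower. The median level difference over the 45 genes was 1.10, beside 0.03 over all genes compared, and 39 of the 45 had a higher mean (86.7%), beside 51.4% of all genes compared. In a list chosen with earlier results of these data known, these numbers are a description. Of the 13 genes, 9 were higher in each of the 4 amplification conditions and 4 in 3 conditions. Of the 13, 12 kept a level difference of at least 2 whichever nucleus was left out.

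The NR4A receptors, orphan nuclear receptors that act without a known hormone ligand, had the highest median difference of the 7 activity lists, 4.12. Nr4a1 (chr15:101254269-101274795, GRCm38, plus strand) had a TPM of 0 at the lowest, 470 at the median and 1470 at the highest in present nuclei, against 0, 0 and 188 in absent nuclei. It was detected in 10 of 12 present nuclei (83.3%, exact 95% interval 51.6 to 97.9%) and in 3 of 19 absent nuclei (15.8%, 3.38 to 39.6%). Present nuclei 10 and 31 were at 0, and absent nuclei 40, 48 and 39 reached 188, 34 and 12.5 TPM, so the groups overlapped. The level was 7.06 ± 3.74 (SD, n = 12) against 0.87 ± 2.15 (SD, n = 19), a difference of 6.19 that exceeded both SDs. Pooled over nuclei, Nr4a1 took 607 CPM, counts scaled to a common library total (exact Poisson interval 587 to 628), in present and 16.5 CPM (13.6 to 20) in absent nuclei, and the highest present nucleus held 20.2% of the present counts. The shares were 83.3% and 15.8% again after thinning. In the FOS- nuclei the share was 9.76%, and none of the 9 FOS+ nuclei without Arc mRNA had Nr4a1.

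Nr4a3 and Nr4a2 passed the level limit but not the share limit, since many absent nuclei held some of their mRNA. Nr4a3 was at 7.05 ± 2.64 in present (n = 12) and 2.93 ± 3.01 in absent nuclei (SD, n = 19), a difference of 4.12, with shares of 91.7% and 63.2%. Its median TPM was 110 in present and 2.48 in absent nuclei. Nr4a2 was detected in all 12 present nuclei and in 78.9% of absent nuclei, at 7.70 ± 2.71 and 4.73 ± 3.07. Averaged over the 3 receptors, the level per nucleus was 7.27 ± 2.68 in present (n = 12), 2.84 ± 1.88 in absent (n = 19), 1.24 ± 1.73 in Arc-negative FOS+ (n = 9) and 0.35 ± 0.57 in FOS- nuclei (n = 41).

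**Figure D2:**
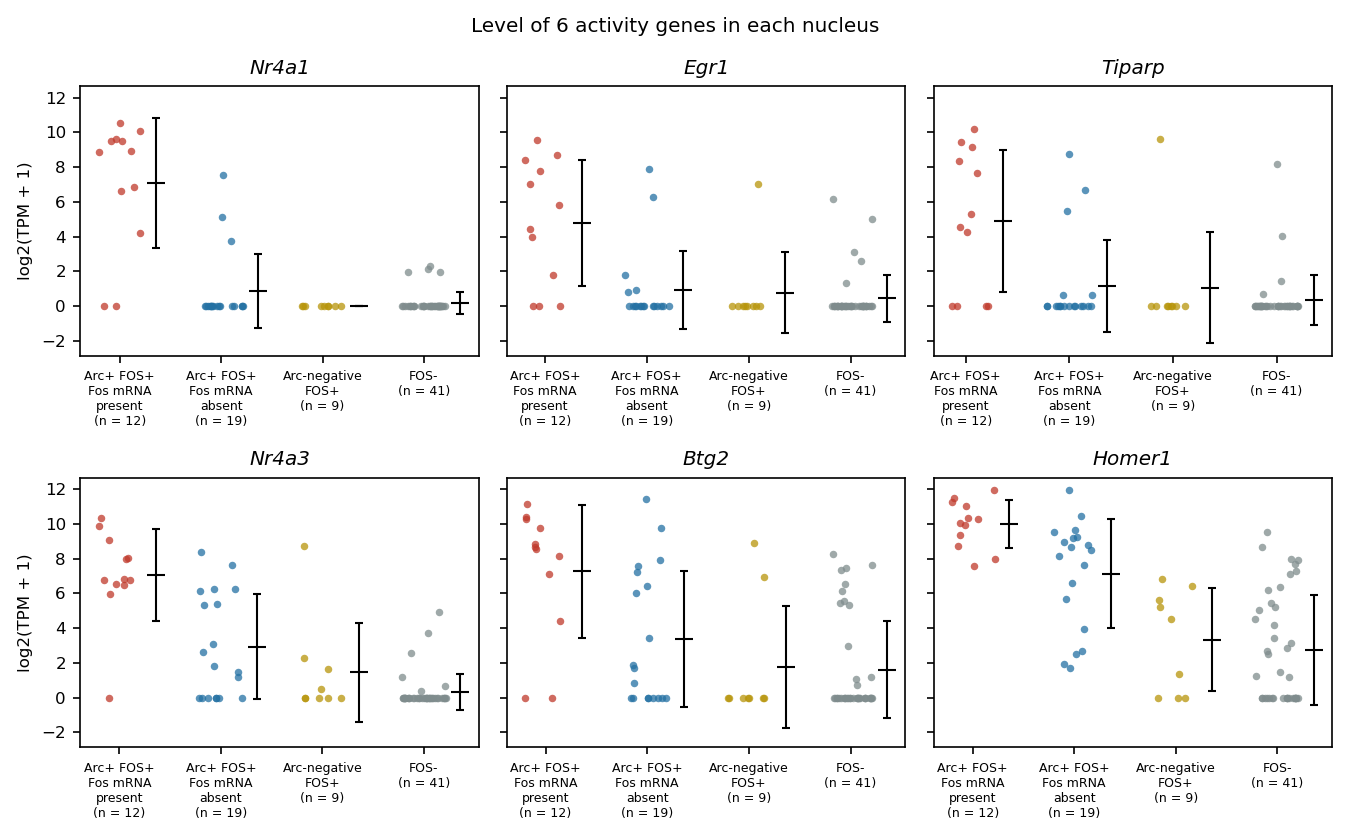
Level of 6 genes in single nuclei (y axis, log2(TPM + 1)) of 4 groups (x axis), 1 point per nucleus spread sideways at random, with the mean and SD to the right of each group. For Nr4a1, Egr1 and Tiparp most of the 19 absent nuclei lie at or near 0, as do the FOS- nuclei, whereas for Homer1 all members lie above 1.

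The promoters of 4 activity genes that passed the level limit are shown, to look for the element through which CREB acts, the CRE. They had the largest level differences among activity genes with 1 promoter in the table and few of its bases in annotated exons. Nr4a3 and Tiparp, with differences of 4.12 and 3.74, were left out because 152 and 37 bases lay in exons. Each is the stretch of 250 bases before a RefSeq transcription start (GRCm38.p6), written 5′ to 3′ along the strand of the gene. Capitals mark the CRE (TGACGTCA) and its core (TGACG), which reads CGTCA where the match is on the opposite strand, and every CRE holds the core on both strands. The stretches are those of Nr4a1 (chr15:101266596-101266845, plus strand), Btg2 (chr1:134079156-134079405, minus strand), Junb (chr8:84978749-84978998, minus strand) and Fosb (chr7:19310046-19310295, minus strand).
Nr4a1: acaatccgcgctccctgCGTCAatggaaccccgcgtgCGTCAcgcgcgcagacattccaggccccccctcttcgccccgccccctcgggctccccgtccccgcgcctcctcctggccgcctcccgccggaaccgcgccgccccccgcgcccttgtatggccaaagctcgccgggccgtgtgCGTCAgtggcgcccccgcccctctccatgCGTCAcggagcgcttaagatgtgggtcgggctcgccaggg
Btg2: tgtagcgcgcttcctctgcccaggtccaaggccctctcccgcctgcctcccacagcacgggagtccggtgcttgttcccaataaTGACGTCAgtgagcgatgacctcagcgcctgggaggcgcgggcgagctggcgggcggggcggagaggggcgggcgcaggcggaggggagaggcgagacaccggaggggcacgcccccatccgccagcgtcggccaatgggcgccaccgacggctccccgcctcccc
Junb: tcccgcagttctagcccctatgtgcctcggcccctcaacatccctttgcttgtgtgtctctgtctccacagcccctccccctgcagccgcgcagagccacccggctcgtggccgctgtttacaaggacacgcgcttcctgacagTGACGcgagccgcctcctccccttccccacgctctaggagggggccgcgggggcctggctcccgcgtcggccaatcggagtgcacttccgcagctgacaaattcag
Fosb: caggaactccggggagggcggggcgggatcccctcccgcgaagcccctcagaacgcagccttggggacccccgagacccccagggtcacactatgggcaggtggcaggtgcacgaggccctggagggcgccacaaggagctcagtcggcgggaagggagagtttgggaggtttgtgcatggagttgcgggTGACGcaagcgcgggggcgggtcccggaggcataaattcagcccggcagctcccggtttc
The Nr4a1 stretch holds 4 matches to the core and no full CRE, the Btg2 stretch holds 1 full CRE, and those of Junb and Fosb hold 1 core match each. Of the 59 genes called higher with a promoter in the table, 49.2% held the core, as did 50% of 10 genes called lower, 30.3% of 7276 genes compared and 19.8% of all 27025 genes in the table. Among activity genes the core was found in 8 of 12 with a level difference of at least 2 and in 14 of 25 others, so both sets held it often. The AP-1 site (TGANTCA) was found in none of the 12 and in 2 of the 25, and the CArG box bound by SRF in none and 2, beside 7.82% and 1.62% of all genes. Tiparp held none of these motifs. Egr1, also past the level limit, had no promoter in the table and was not scanned. A match is only a run of letters in this window.

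Among the EGR genes, Egr1 was called and the others were not. Egr1 (chromosome 18), a zinc finger factor that is an early marker of synaptic activity, had a TPM of 0, 38.7 and 739 at the lowest, median and highest in present nuclei and a median of 0 in absent nuclei. It was detected in 9 of 12 (75%, 42.8 to 94.5%) and 3 of 19 nuclei (15.8%, 3.38 to 39.6%), and its level was 4.79 ± 3.62 against 0.93 ± 2.23, a difference of 3.86 that exceeded both SDs. After thinning the shares were 66.7% and 15.8%. Egr4 differed by 2.08 in level with shares of 58.3% and 31.6%. Egr2 and Egr3 differed by 0.49 and 0.24 and were detected in at most 25% of either group. Nab2, a corepressor that EGR factors induce, differed by -1.07 with shares of 33.3% and 52.6%.

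The partners of FOS in AP-1 were higher on average, with none called. All 7 of the 10 genes that could be compared had a higher mean in nuclei with Fos mRNA, beside 51.4% of all genes compared, 3 of them by at least 2. Junb was at 6.63 ± 4.19 against 3.16 ± 3.97 with shares of 75% and 42.1%, a difference of 3.47 that lay within both SDs. Fosb differed by 3.07 with shares of 83.3% and 47.4%, and Fosl2 by 2.53 with shares of 91.7% and 78.9%. After thinning the Fosb shares were 83.3% and 42.1%. Jun, detected in 83.3% and 73.7%, differed by 1.31. Atf3, a stress-induced member of the ATF family, was the least different at 0.18, with shares of 41.7% and 36.8%. By pooled counts Jund and Atf3 ran the other way, at 33.3 and 210 CPM in present and 37.7 and 232 CPM in absent nuclei. The rest of those compared were higher in present nuclei by pooled counts too. Fosl1, Batf and Batf3 were detected in too few members to be compared.

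The other early response genes split. Tiparp (chr3:65528410-65555518, plus strand), a mono-ADP-ribosyltransferase, was called, with a TPM of 0, 29.9 and 1179 at the lowest, median and highest in present nuclei and a median of 0 in absent nuclei. It was detected in 8 of 12 (66.7%, 34.9 to 90.1%) and 3 of 19 nuclei (15.8%, 3.38 to 39.6%) and differed by 3.74, which lay within the SD of 4.08 between present nuclei. Btg2, an antiproliferative transcriptional coregulator, differed by 3.89, with shares of 83.3% and 52.6%, and 1 absent nucleus held 83.4% of its counts in that group. After thinning the Btg2 shares were 83.3% and 42.1%. Gadd45b and Gadd45g, stress sensors linked to DNA demethylation, differed by 2.47 and 2.36. Npas4, a factor induced only by neuronal activity, was detected in 33.3% and 15.8% of nuclei and differed by 1.71. Klf10 differed by -1.23 with shares of 41.7% and 47.4%. Of 15 genes in this list 7 were too rarely detected to compare, among them Ier2, Zfp36 and Maff.

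At least 2 of Nr4a1, Egr1 and Tiparp were detected in 10 of 12 present nuclei, with all 3 in 6. In the absent group 12 of 19 nuclei had none of the 3, 5 had 1 and 2 had 2. Of the 41 FOS- nuclei 30 had none, as had 7 of the 9 FOS+ nuclei without Arc mRNA. These 3 genes were picked because their shares differed, so the counts describe how they fell within single nuclei and support nothing further.

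Kinases induced by activity and inhibitors of MAP kinase signalling had higher means in nuclei with Fos mRNA, and none was called. Sgk1, a serine kinase regulated at the transcript level, was at 8.42 ± 1.71 (SD, n = 12) against 5.30 ± 4.10 (SD, n = 19) and was detected in 100% and 68.4% of nuclei. Sik1 differed by 1.87, Pim1 by 1.36 and Plk2, which was found in every member, by 0.46. Of the 8 MAP kinase feedback genes compared all had a higher mean, beside 51.4% of all genes compared, the median difference was 0.91 and the largest was 1.75 for Dusp5, a phosphatase of nuclear ERK. Spry2, a receptor tyrosine kinase inhibitor, was abundant in both groups at 9.09 ± 1.19 and 8.74 ± 2.44. By pooled counts Spry2, Spred2 and Dusp14 ran the other way, at 883, 121 and 17.3 CPM in present and 1143, 199 and 17.8 CPM in absent nuclei. So did the kinase Plk3, at 30.9 and 38.6 CPM. The rest of those compared in both lists were higher in present nuclei by pooled counts too.

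Among genes listed for secreted and related products, 4 of 8 had a higher and 4 a lower mean, and the median difference was 0.10. When these genes are induced was not measured, so the list is not a set of late genes as opposed to early ones. None of the 8 differed by 2, whereas 3.17% of all genes compared were higher and 1.16% lower by at least 2, and no difference between lists was tested. Inhba, the activin A subunit, was detected in 83.3% of present and 89.5% of absent nuclei and differed by -1.25, with levels of 6.94 ± 4.17 and 8.19 ± 3.54. Vgf, a neuropeptide precursor, differed by -0.86 in level, but its pooled counts were higher in present nuclei at 320 CPM (306 to 335) against 197 CPM (186 to 208), with 40.1% of the present counts in 1 nucleus. Nptx2, a secreted pentraxin that clusters AMPA receptors, differed by -0.51. Bdnf, the neurotrophin, differed most in the other direction at 1.58, with levels of 8.40 ± 1.96 and 6.81 ± 2.75 and shares of 100% and 94.7%. Averaged over the 8 genes, the level was 6.19 ± 1.51 in present (n = 12) and 6.11 ± 2.19 in absent nuclei (n = 19). The same average was 1.68 ± 0.71 in the Arc-negative FOS+ nuclei (n = 9) and 1.31 ± 0.90 in FOS- nuclei (n = 41).

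**Figure D3:**
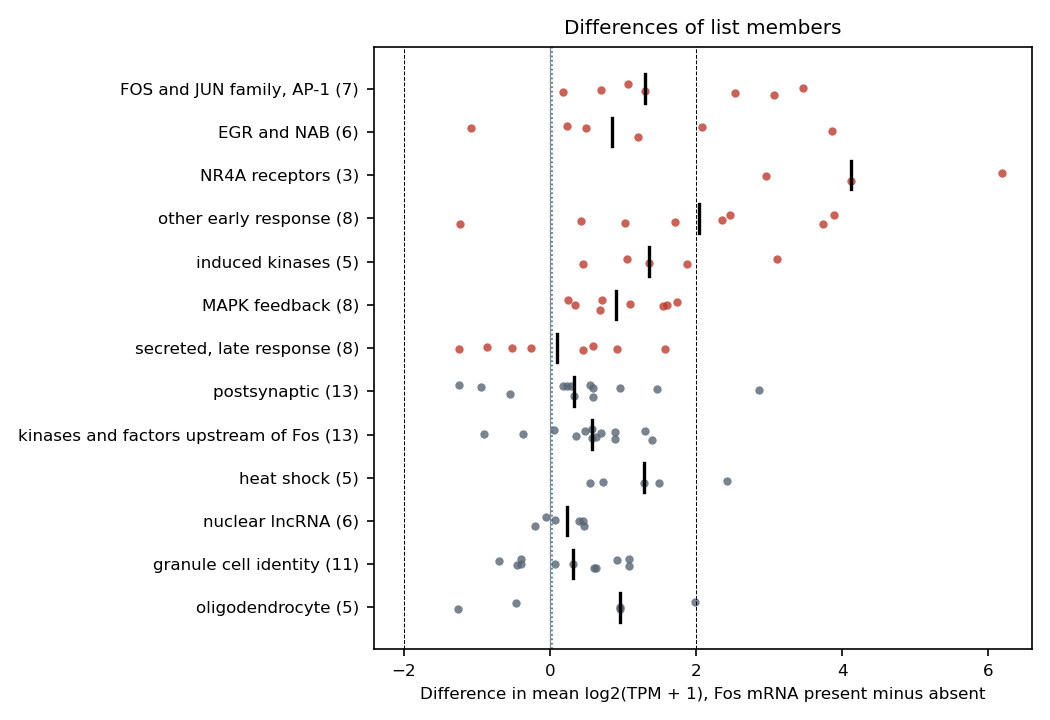
Difference in level between nuclei with and without Fos mRNA (x axis, mean log2(TPM + 1)) for each gene of 13 lists, 1 point per gene with the number compared in brackets; black bars are medians, the dotted line is the median of all genes at 0.03 and dashed lines mark -2 and 2. The median is 4.12 for the NR4A receptors and 0.10 for the genes for secreted and related products, whose label of late response names a timing that was not measured.

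Nuclei without Fos mRNA held most activity mRNAs in a larger share than FOS- nuclei. Of the 45 activity genes compared, 44 had a higher share in absent nuclei than in FOS- nuclei (97.8%, beside 53.3% of all genes compared), and 30 had a share higher by at least 20 points (66.7%, beside 9.20%). For the 8 genes for secreted and related products the share was higher by at least 20 points in each. Inhba was detected in 89.5% of absent and 24.4% of FOS- nuclei, Nptx2 in 68.4% and 2.44%, and Vgf in 84.2% and 4.88%. Of the 13 genes higher by at least 2 with Fos mRNA, 10 were likewise at least 20 points above the FOS- share in absent nuclei. For the remaining 3 the absent share lay within 10 points of the FOS- share, as it did for 53.4% of all genes compared: 15.8% against 9.76% for Nr4a1, 12.2% for Egr1 and 7.32% for Tiparp. These 3 are the genes called, and the call itself required an absent share at least 40 points below the present share. Their low absent shares were thus largely set by the choice. The sort for FOS protein and the Arc limit set the absent group apart from the FOS- nuclei, so this comparison is a description.

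**Figure D4:**
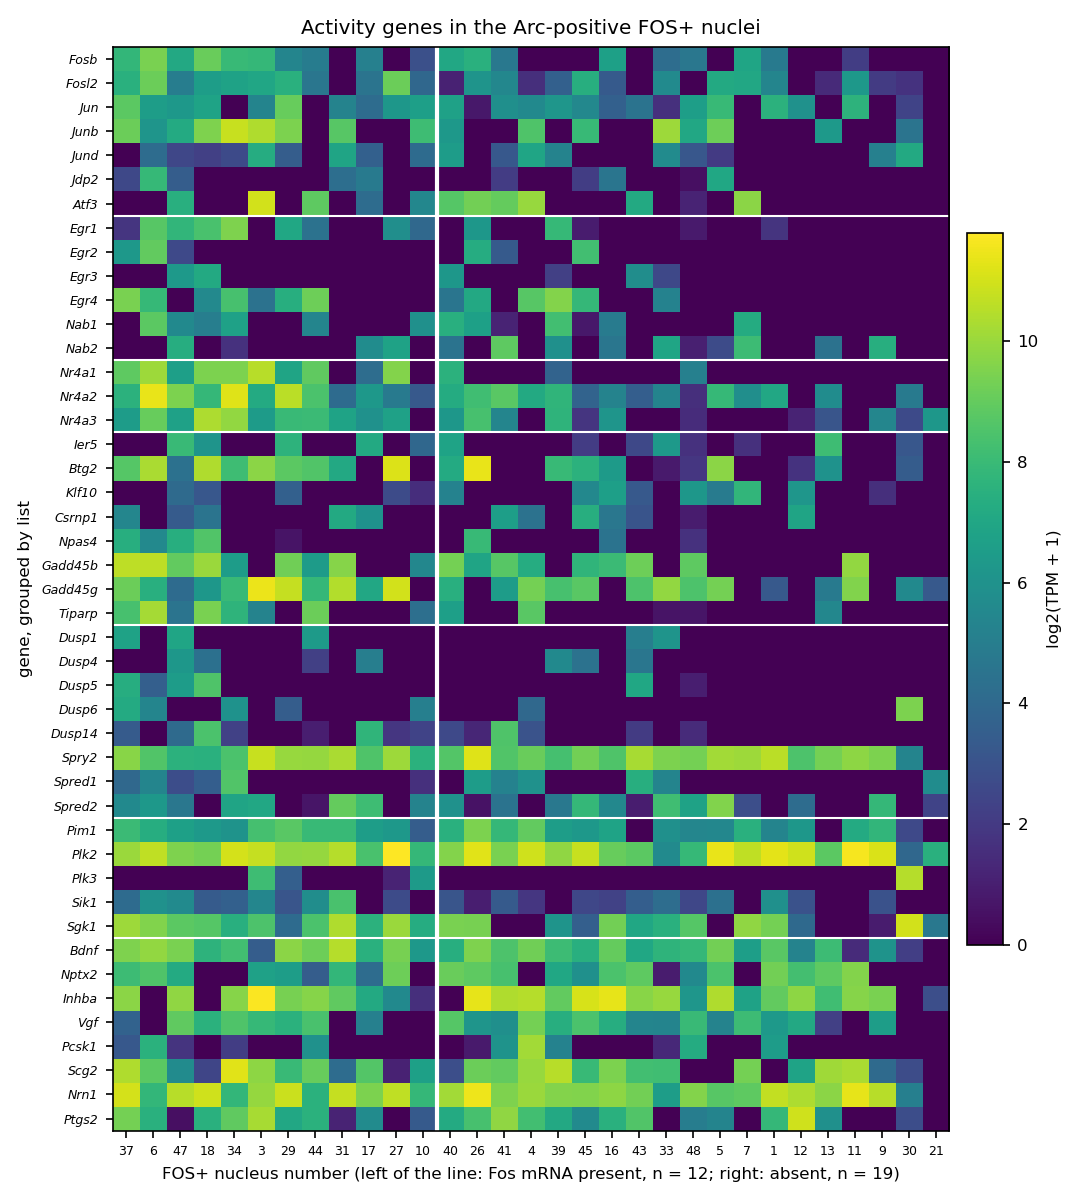
Levels (colour, log2(TPM + 1)) of the 45 activity genes compared (rows, grouped by list with white lines) in the 31 nuclei (columns, numbered FOS+ nuclei, ordered within each group by their mean over these genes); 12 nuclei with Fos mRNA lie left of the thick line and 19 without it right. The Nr4a1 row is lit in 10 of 12 columns on the left and 3 of 19 on the right, whereas the rows of Plk2, Spry2 and Nrn1 are lit on both sides.

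Among postsynaptic genes Homer1 stood apart, with 13 genes compared and none called. Homer1 (chr13:93299635-93405129, plus strand) encodes long scaffolds and a short form that activity induces, and values per gene cannot tell these apart. It was detected in every member, with a TPM of 188 at the lowest, 1155 at the median and 3977 at the highest in present nuclei and 2.21, 356 and 3895 in absent nuclei. The level was 10.00 ± 1.39 (SD, n = 12) against 7.14 ± 3.13 (SD, n = 19), a difference of 2.86. Of the other genes in this list Gria3 differed by 1.47 and Camk2a, the abundant synaptic kinase, by -1.24, and the median was 0.33. Arc itself was at 8.86 ± 2.54 and 8.53 ± 2.25, a difference of 0.33.

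Of 17 kinases and factors that act on the Fos promoter 13 were compared. None differed by 2, whereas 3.17% of all genes compared were higher and 1.16% lower by at least 2. With 13 genes this count is no result about them. Of the 13, 11 had a higher mean in nuclei with Fos mRNA (84.6%, beside 51.4% of all genes compared), and the median difference was 0.58 beside 0.03. Elk1, an SRF partner phosphorylated by ERK, differed by 1.40 and Creb1 by 1.31, while Map2k1, the kinase above ERK, differed by -0.91. Shares were 83.3% and 73.7% for Elk1, but 50% and 57.9% for Creb1. After thinning they were 41.7% and 47.4% for Elk1 and 50% and 36.8% for Creb1, so the direction of both depended on the measure. The level of Elk1 was 3.38 in present, 1.98 in absent and 3.56 in FOS- nuclei. Srf was detected in 16.7% of present and 10.5% of absent nuclei, too few to compare.

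Beyond the activity lists, the 12 called genes with the largest differences included 9 others. C1qtnf4, which encodes a secreted protein of the C1q and TNF-related family, was detected in all 12 present nuclei (73.5 to 100%) and in 36.8% of absent nuclei (16.3 to 61.6%), at 7.29 ± 1.92 and 2.11 ± 3.05. The FOS- share of C1qtnf4 was 70.7% and that of the Arc-negative FOS+ nuclei 77.8%, both between the present and absent shares. Arl6ip1, a shaper of the endoplasmic reticulum, showed the same order with 83.3%, 42.1% and 68.3% in present, absent and FOS- nuclei. Ndfip1, an adaptor of NEDD4 ubiquitin ligases, differed by 4.06, Smc1a, a cohesin subunit, by 3.91, and Arpc3, a subunit of the actin-nucleating ARP2/3 complex, by 3.82. Nop56 of the nucleolar snoRNPs, the chaperone Hspa4 and the transcriptional coregulator Sertad1 differed by 3.69, 3.62 and 3.60. Over the 87 genes the median level was 4.24 in present, 1.35 in absent and 2.12 in FOS- nuclei, and 22 of the 87 had a lower mean in FOS- than in absent nuclei. The 87 genes were picked for high present and low absent values, which by itself favours FOS- values between them. Whether absent nuclei were low relative to FOS- nuclei was therefore not tested. Of these 12 genes, 10 were higher in all 4 amplification conditions and 8 were called whichever nucleus was left out.

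Gad1, which encodes the GABA-synthesizing enzyme GAD67 and had been fixed as a marker of inhibitory neurons, was also called. It was detected in 83.3% of present (51.6 to 97.9%) and 31.6% of absent nuclei (12.6 to 56.6%), at 6.25 ± 3.81 and 2.54 ± 3.84, a difference of 3.71 that lay within both SDs. In 1 of the 4 amplification conditions, TSO at 10 µM with ERCC at 1:2000, its difference was -0.86. Gad2, the gene of the second GABA-synthesizing enzyme, ran the other way with shares of 16.7% and 42.1%. Slc32a1, the vesicular GABA transporter, and Pvalb were at 0 in both groups, and Sst and Vip were detected in at most 15.8% of either. The summed TPM of the 6 inhibitory markers ranged from 1.11 to 1360 in present nuclei and from 0 to 772 in absent nuclei.

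The 12 named genes called lower with Fos mRNA belong to no list. Rpl13a, a ribosomal protein gene with processed pseudogenes among which reads may be divided, was detected in 41.7% of present and 84.2% of absent nuclei and differed by -4.11. Ppid, a peptidyl-prolyl isomerase, differed by -3.55 and Tmcc1 by -2.88. Ptk2, the focal adhesion kinase, was detected in 16.7% and 68.4% of nuclei, and 1 nucleus held 91.2% of its counts in the present group. Clk3, a kinase of splicing factors, was detected in none of the 12 present nuclei, in 42.1% of absent and in 26.8% of FOS- nuclei. Pooled, it had no count in present nuclei (up to 0.65 CPM) and 62.1 CPM (56.2 to 68.5) in absent nuclei. These limits leave out the spread between nuclei and so overstate the contrast. Zmym2 (-2.36), Spns2 (-2.52), Wdr5 (-2.49), Sec11a (-2.43), Ifitm7 (-2.21), Thpo (-2.20) and Senp3 (-2.03) make up the rest, each figure a level difference. Of the 12 genes 8 were lower in all 4 conditions, and 3 were called whichever nucleus was left out. Over all 19 genes the median level was 1.18 in present, 3.75 in absent and 2.66 in FOS- nuclei. Here too the choice of genes favours a FOS- value between those of present and absent nuclei.

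The number of activity genes detected per nucleus was higher with Fos mRNA, with overlap. It was 22 at the lowest, 29.5 at the median and 41 at the highest in present nuclei and 7, 25 and 33 in absent nuclei. The means were 30.4 ± 5.71 (SD, n = 12) and 22.3 ± 6.56 (SD, n = 19), a difference of 8.10 genes, beside 8.78 ± 1.56 in Arc-negative FOS+ (n = 9) and 7.44 ± 3.81 in FOS- nuclei (n = 41). At a common depth of 88335 counts the numbers were 28.9 ± 5.90 and 20.8 ± 6.23, while all genes detected came to 4807 ± 1051 and 4638 ± 780. Across the nuclei of a group, the number of activity genes and the logarithm of the total count had a Pearson r of 0.0695 in present (n = 12) and 0.395 in absent nuclei (n = 19), which share one preparation.

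**Figure D5:**
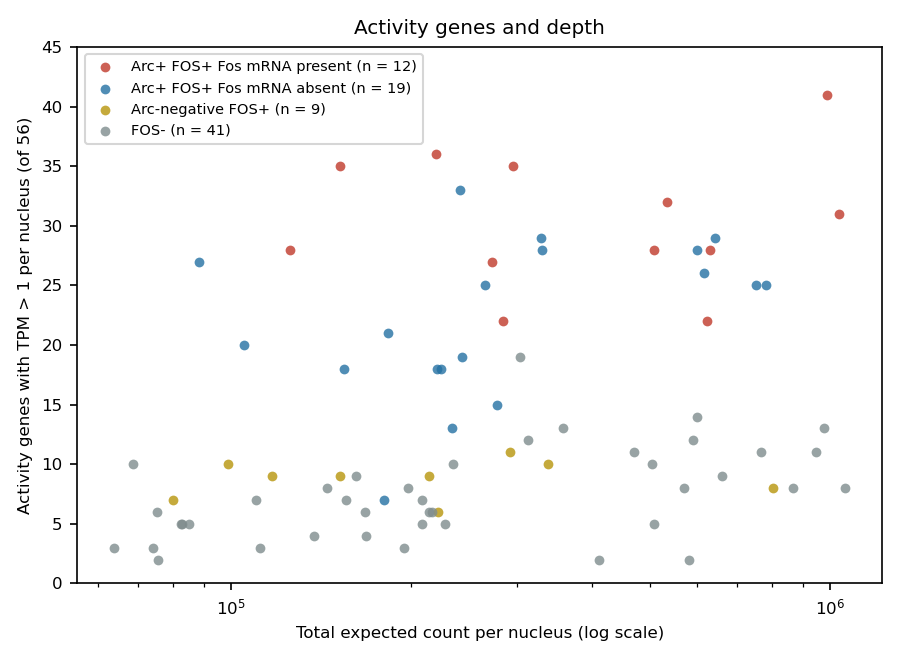
Activity genes with a TPM above 1 (y axis, of 56) against total expected count (x axis, log scale) for each nucleus of 4 groups. Present nuclei span 22 to 41 genes and absent nuclei 7 to 33, over overlapping depths.

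Single nuclei departed from their group. FOS+ nucleus 31, the present nucleus with the lowest Arc TPM (1.85), lacked Nr4a1, Egr1 and Tiparp but had Btg2 at 136 TPM, Nr4a3 at 114 TPM and Homer1 at 1263 TPM. FOS+ nucleus 10, present and highest in astrocyte and oligodendrocyte markers, lacked Nr4a1, Nr4a3 and Btg2. On the other side, FOS+ nucleus 40 was the absent nucleus richest in activity mRNAs, with 33 genes detected, Nr4a1 at 188 TPM, Tiparp at 100.2 TPM and Arc at 1137 TPM. FOS+ nuclei 21 and 30, absent, had Arc at only 3.03 and 8.77 TPM and 7 and 20 activity genes, nucleus 30 being the one with 4304 TPM of microglia markers. When the 3 nuclei with Arc below 10 TPM were left out, 11 present and 17 absent nuclei remained, 122 genes were called higher and 23 lower, and the activity gene difference was 7.83.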

How the data were processed

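The deposited tables for the 96 NE nuclei were used. To make them, the authors trimmed single-end reads of 50 bases and aligned them with RSEM (Bowtie 1.0.0 in the submitters' processing notes) to mm10 with the Ensembl annotation, and gene names were converted to symbols. The expected counts deposited by the authors are RSEM's estimates of reads per gene, without normalization. The TPM values deposited by the authors scale these within each nucleus by gene length. Spike-ins were not used here, so the paper's requirement on spike-in correlation was not applied. The nuclei kept can therefore differ from those that passed the paper's quality control.

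Quality limits, groups and calls were applied as described above, with a pseudocount of 1 TPM. Shares have exact Clopper-Pearson and pooled CPM exact Poisson 95% intervals. A count of 3 corresponds to 0.00029 to 0.00340% of a member's total. Without molecular identifiers, reads cannot be taken as separate molecules. Expected counts were rounded before thinning (seed 1). The members, lists and alternatives were chosen with earlier results of these data known. Named genes are those of the lists, the 12 called genes with the largest level difference in each direction (predicted genes and pseudogenes left out) and Arc. Gene positions are from GENCODE (GRCm38) and promoters from RefSeq. No 2 members had identical values. Python 3.11.15, pandas 2.3.3 and scipy 1.17.1 were used.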

Additional observations from a re-analysis of the deposited data

How the results depend on the processing

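Nr4a1, Egr1 and Tiparp kept their direction in every setting tried, nuclei left out in turn included, with level differences of 3.96 to 6.83, 2.15 to 4.36 and 2.21 to 4.61 and share differences of 57.8 to 75.1, 50.9 to 66.0 and 46.97 to 57.8 points. A pseudocount of 10 reduced the genes called higher from 87 to 20 and those called lower from 19 to 1, and by level alone to 61 and 11. Other settings kept the number called higher within 1.5 times. The number called lower was 5 without quality limits (76 by level alone), 42 after thinning, 12 as the mean within amplification conditions, and 130 (407 by level alone) among the 9 present and 15 absent nuclei with totals of 150000 to 700000, a setting chosen after seeing the data. It was 37 (238 by level alone) without FOS+ nuclei 10 and 30, also chosen after seeing the data. With totals of 150000 to 700000 the difference in genes detected per nucleus reversed from 388 to -61.3. Of the 87 and 19 genes, thinning, with any count taken as detection, kept 42 and 11. CPM in place of TPM, with a detection limit of 5 CPM, kept 47 and 8. Leaving out each nucleus gave 65 to 112 genes called higher and 10 to 27 called lower, the lowest without FOS+ nucleus 6, and 331 to 442 and 121 to 194 by level alone. The same range was 152 to 528 for genes detected, 80570 to 163278 for the total count and 7.14 to 8.87 for activity genes. The causes were not tested. A Fos limit of 5 TPM gave the same nuclei. No paired analysis was possible because the result comes from no test and the numbers of the nuclei pair nothing. With 12 and 19 nuclei of 1 mouse, the intervals of the shares are wide, and nothing here extends to other animals.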

Other observations

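Heat shock genes had higher means in nuclei with Fos mRNA. All 5 of the 7 genes that could be compared did so, beside 51.4% of all genes compared, with a median difference of 1.30 beside 0.03, and none was called. Hspa8, the constitutive HSC70 chaperone, was at 8.66 ± 1.6 (SD, n = 12) in present and 6.24 ± 4.06 (SD, n = 19) in absent nuclei, with shares of 100% and 73.7%. Hspa1a, the classical stress-induced chaperone, was at 0 in both groups, and Hspa1b was detected in no member. Averaged over the 5 genes the level was 6.74 ± 1.19 and 5.44 ± 1.96, beside 3.86 ± 1.76 in FOS- nuclei (n = 41).

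RNAs that stay in the nucleus differed little. None of the 6 long noncoding RNAs was called, and the median difference was 0.23. Malat1 took 14.2 ± 3.31% of TPM in present and 15.7 ± 5.6% in absent nuclei, beside 8.56 ± 3.18% in FOS- nuclei (n = 41) and 7.97 ± 3.87% in the Arc-negative FOS+ nuclei (n = 9). Genes of cytoplasmic ribosomal proteins together took 1.14 ± 0.51% and 1.19 ± 0.39% of TPM in present and absent nuclei. Immature granule cell genes, Sox11, Neurod1 and Igfbpl1, differed by 0.44, 0.12 and 0.30, and Dcx was detected in 25% and 5.26% of nuclei.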
